A study of Homo sapiens with 2 samples.

Results

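The peaks of the zinc finger transcription factor ZFX at the starts of 6 small nucleolar RNA (snoRNA) host genes, SNHG3, SNHG12, GAS5, SNHG1, SNHG8 and SNHG15, were described in the human medulloblastoma cell line DAOY. The peaks came from ChIP-seq, in which chromatin is precipitated with an antibody and the recovered DNA is sequenced. The study held 2 samples of this line, sonicated chromatin precipitated with a rabbit polyclonal antibody against ZFX and sonicated chromatin taken as input with no precipitation. The cells grew in serum-containing medium, the labels name no treatment or genetic change, and each sample is 1 library. Peaks of the ZFX library were analysed, and the input was not analysed here. A peak was taken for a gene when it overlapped the 5 kb on either side of the gene's start on the hg19 build, and this gave 12 of the 14471 peaks in the list. The genes were selected on the position, width and score of these same peaks, so those values at the starts are a description and were not tested. A single library allows no comparison between replicates. Sequencing depth is unknown here, and with it the counting error of a peak.

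snoRNA host genes are transcribed into RNAs whose exons mostly code for no protein, while snoRNAs are cut out of their introns. Box C/D snoRNAs guide methylation of ribosomal RNA and box H/ACA snoRNAs guide its pseudouridylation, so these genes belong to the supply line of ribosome production. Many of them begin transcription at a tract of pyrimidines, as ribosomal protein genes do, and several of the spliced transcripts are studied in tumours in their own right. ZFX, encoded on the X chromosome, is a transcriptional activator found mainly at promoters, and a known core of its motif reads AGGCCT.

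Promoter sequences were taken at the RefSeq starts of these genes, which were not matched to the hg19 starts used for the peaks. RefSeq sequences on the GRCh38.p14 build, covering 250 bases before to 50 after each annotated start, matched 5 of the 6 genes by symbol. They are shown for a pair with the ZFX core (SNHG3 and SNHG8) and for SNHG12, whose hg19 start had a peak and whose sequence had no such core. The fourth is SNHG1, whose hg19 start had no listed peak. Each runs from the 5′ to the 3′ end on the gene's own strand. Capitals mark AGGCCT in SNHG3 and SNHG8 and the pyrimidine tract at the first transcribed base in SNHG12, and the sequence of SNHG1 has neither. They come from chr1:28505693-28505992 on the plus strand, chr4:118278512-118278811 on the plus strand, chr1:28581824-28582123 on the minus strand and chr11:62855836-62856135 on the minus strand.
SNHG3: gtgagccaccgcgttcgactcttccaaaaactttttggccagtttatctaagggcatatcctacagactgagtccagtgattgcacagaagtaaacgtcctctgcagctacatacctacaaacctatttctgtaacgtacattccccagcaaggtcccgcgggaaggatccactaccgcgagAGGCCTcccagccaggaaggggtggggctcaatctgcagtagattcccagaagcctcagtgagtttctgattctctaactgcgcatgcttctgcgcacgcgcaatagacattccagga
SNHG8: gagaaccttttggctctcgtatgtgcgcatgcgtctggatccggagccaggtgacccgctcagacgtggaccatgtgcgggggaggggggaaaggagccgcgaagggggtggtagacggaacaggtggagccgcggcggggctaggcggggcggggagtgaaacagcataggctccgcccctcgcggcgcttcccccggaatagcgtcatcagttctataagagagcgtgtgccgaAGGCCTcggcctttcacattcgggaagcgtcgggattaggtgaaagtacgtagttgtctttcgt
SNHG12: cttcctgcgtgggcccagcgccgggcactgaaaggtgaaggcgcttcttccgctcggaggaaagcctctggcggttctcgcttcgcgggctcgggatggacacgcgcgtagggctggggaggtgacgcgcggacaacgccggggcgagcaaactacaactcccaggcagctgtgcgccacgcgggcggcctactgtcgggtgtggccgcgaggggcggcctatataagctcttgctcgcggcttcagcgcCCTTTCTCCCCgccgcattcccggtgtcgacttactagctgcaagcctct
SNHG1: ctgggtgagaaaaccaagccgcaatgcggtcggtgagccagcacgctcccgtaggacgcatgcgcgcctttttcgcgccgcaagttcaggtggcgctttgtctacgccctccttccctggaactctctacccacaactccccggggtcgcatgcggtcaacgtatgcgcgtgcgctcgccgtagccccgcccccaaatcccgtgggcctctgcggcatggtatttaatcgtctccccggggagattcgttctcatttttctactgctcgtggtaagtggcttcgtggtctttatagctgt

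AGGCCT, which reads the same on both strands, occurred once in SNHG3, from 68 to 63 bases before the RefSeq start, and once in SNHG8, from 14 to 9 bases before it. It was in 2 of the 5 promoters and in 10.9% of all 35116 promoters of that length. Within 100 bases before the start, the same 2 promoters held it, against 3.6% of all. The E-box CACGTG, searched on both strands, was in none of the 5 and in 7.3% of all promoters. It shares no overlap with AGGCCT. A first base C followed by at least 4 pyrimidines was found at 1 of the 5 RefSeq starts and at 4.1% of all starts. The 1 start was that of SNHG12, with a tract of 11 bases. The call rests on the annotated first base, so it holds only for the RefSeq starts used. Among 9 other snoRNA host genes found in the table (SNHG5, SNHG7, SNHG16, SNHG17, SNHG29, SNHG32, EPB41L4A-AS1, ZFAS1 and DANCR), 1 promoter held AGGCCT (SNHG16), 1 held CACGTG (SNHG7) and 3 starts were of the pyrimidine kind (SNHG5, SNHG32 and ZFAS1). Peaks of these other genes were not analysed here.

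The promoters differed in composition. The ratio of observed to expected CpG was 1.12 in SNHG1, 1.05 in SNHG8 and 1.03 in SNHG12, higher than in 98.0%, 95.1% and 93.8% of promoters, whose median was 0.58. SNHG3 had 0.66 and GAS5 had 0.50, higher than in 55.0% and 46.0% of promoters. GC content was 67.3% in SNHG12, 62.3% in SNHG8, 60.0% in SNHG1, 51.7% in SNHG3 and 37.7% in GAS5, where the median of all promoters was 58.7%. SNHG1 had the highest CpG ratio of the 5 and no peak over its start, while SNHG8 and SNHG12, at 1.05 and 1.03, each had a start peak. SNHG15 had no promoter sequence here, and no relation between composition and peaks is read from these genes. The GAS5 window must be read with care, because on GRCh38.p14 its annotated start lies beyond that of its neighbour ZBTB37. The RefSeq starts and the hg19 starts were not compared, so a base of these windows cannot be placed within a peak.

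A listed peak covered the start in 5 of the 6 genes, SNHG3, SNHG12, GAS5, SNHG8 and SNHG15. These 5 peaks scored between 118.6 and 898.3 on the authors' scale, which has no stated unit and begins at 50 in this list, with a median of 159.2. The other 7 peaks within 5 kb scored between 50.3 and 211.7, with a median of 83.8. Peaks scoring 100 or more numbered 8 of 12 (66.7%), against 53.4% of all listed peaks. The same 8 lay above the list's median score of 108.9, where 49.9% of all peaks lie. All 4 weaker peaks lay away from a start. Set against listed peaks of like width, 4 of the 12 scored above the median of such peaks, a share not determined for the whole list. Of the 12, 8 were also wider than the list's median width, against 50% of all peaks. The share of all gene starts with a listed peak over them was not determined here. Since the genes were selected on these peaks, nothing further is read from these counts and shares.

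**Figure D1:**
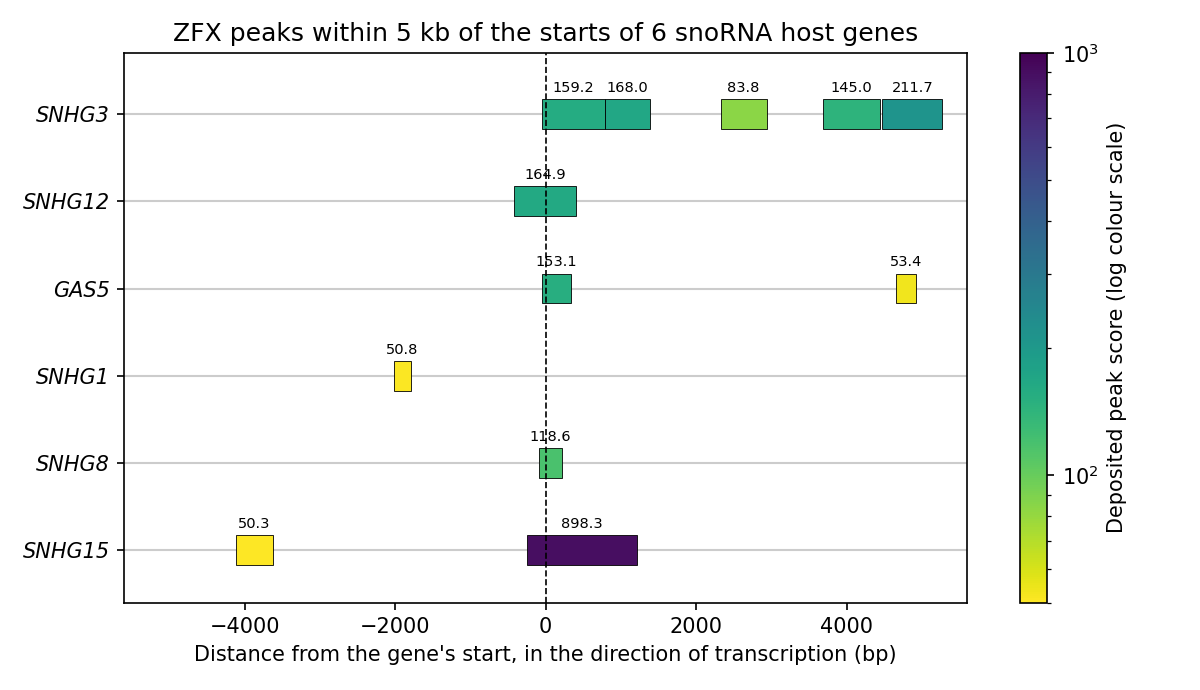
Peaks of the ZFX library around each start, drawn to scale by distance from the start in the direction of transcription (x axis, bp), with 1 row per gene. Boxes are peaks, labelled and coloured by the deposited score on a log colour scale. A box crosses the dashed line at the start in every gene but SNHG1. SNHG3 carries 5 boxes, the first across that line and the others after it.

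SNHG15, which hosts SNORA9, an H/ACA snoRNA, carried the strongest peak of the 6 genes. It lay on chromosome 7 (45025346 to 45026802, hg19), was 1457 bp wide and scored 898.3. That score ranked 372 of 14471 in the list, above 97.4% of peaks, and 36 of the 945 on chromosome 7. The peak reached from 242 bases before the start to 1214 bases after it. Peaks within 10% of its width, 275 in all, had a median score of 581.2, and 79.6% of them scored lower. A second peak, 498 bp wide and centred 3.87 kb before the start, scored only 50.3, so the peak over the start scored 17.86 times as much. Only 1 of the 2096 peaks of like width scored below the weak one. MYO1G, which encodes a myosin, lies within 5 kb of SNHG15 in the RefSeq table.

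SNHG3 carried the longest run. This gene hosts SNORA73A and SNORA73B, H/ACA snoRNAs that act in ribosomal RNA processing. RCC1, which encodes a chromatin-bound exchange factor for the GTPase Ran, starts within 5 kb after the SNHG3 start on the same strand in the RefSeq table. Whether a peak of the run belongs to SNHG3 or to RCC1 was not determined. The 5 peaks at SNHG3 on chromosome 1 spanned 5324 bp (28832405 to 28837728, hg19), and all but 50 of those bases lay from the SNHG3 start onwards. In order from the start, the peaks scored 159.2, 168.0, 83.8, 145.0 and 211.7, with widths of 836, 592, 616, 764 and 798 bp. The highest score therefore stood at the far end of the run, 4476 to 5273 bases after the start, and the lowest in the middle. The gaps between them were 4, 943, 740 and 31 bp. The first and the last pair are thus almost continuous, and all 5 join into 1 region when peaks at most 1 kb apart are merged. Of the 11962 regions joined in this way, 10 held 5 or more peaks, and 8, that of SNHG3 included, were as wide as this or wider. Counted within 5 kb of each peak's midpoint, itself included, 200 peaks (1.38% of the list) had 5 or more. SNHG3 was selected with this run known, so nothing further is read from these counts. Peaks filled 33.3% of the bases within 5 kb of the SNHG3 start, against 19.6% at SNHG15 and between 2.29% and 8.14% at the other 4 genes.

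The SNHG3 run was long and its peaks moderate. The strongest SNHG3 peak ranked 3844 in the list, above 73.4% of peaks. For their widths, 4 of its 5 peaks scored below the median of peaks of like width. In order from the start, the 5 scored above 14.3%, 56.2%, 8.1%, 15.4% and 35.6% of such peaks, so the one at 168.0 was the exception.

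SNHG12 and GAS5 each had a moderate peak over the start. SNHG12, which hosts the H/ACA snoRNAs SNORA16A, SNORA44 and SNORA61 and the C/D snoRNA SNORD99, had 1 peak of 814 bp on chromosome 1 (28907969 to 28908782, hg19) with a score of 164.9. It was the most evenly placed of all, with 416 bases before the start and 398 from the start on. GAS5, named for its rise in growth-arrested cells, hosts a large set of C/D snoRNAs, and the RefSeq table lists 11 snoRNA genes inside it. ZBTB37, which codes for a protein, starts within 5 kb of GAS5 on the opposite strand in that table. The peak over the GAS5 start (173836784 to 173837180, chromosome 1, hg19) was 397 bp wide with a score of 153.1. A further peak of 263 bp, from 4657 to 4919 bases after the start, scored 53.4. The start peak thus scored 2.87 times as much as the other. The scores at SNHG12 and GAS5 were close, while the widths were not. Of all listed peaks, 83.0% were narrower than the SNHG12 peak and 35.0% were narrower than the GAS5 peak. Set against peaks of like width, the GAS5 peak stood above 93.4% and the SNHG12 peak above 18.2%.

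SNHG8, host of the H/ACA snoRNA SNORA24, had a single narrow peak on chromosome 4 (119199826 to 119200136, hg19). It was 311 bp wide, reached from 90 bases before to 220 bases after the start and scored 118.6, above 53.6% of the list. That was the lowest score of the 5 peaks over a start. For its width it was high, above 97.2% of 1794 peaks of like width, whose median score was 61.8. Among the 12 peaks, this one and the GAS5 start peak stood highest against peaks of like width, followed by the SNHG15 start peak at 79.6%. Narrow peaks were not high throughout, since the other GAS5 peak stood above 33.2% and the SNHG1 peak, 229 bp wide, above 6.2%.

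SNHG1 was the exception at its start. It hosts the C/D snoRNAs SNORD22 and SNORD25 to SNORD31, and with LOC124900306 the RefSeq table lists 9 snoRNA genes inside it. SLC3A2, which encodes the heavy chain of several amino acid transporters, starts within 5 kb before the SNHG1 start on the opposite strand in that table. To which of the 2 genes a peak between them belongs was not determined. The only peak within 5 kb of the SNHG1 start lay on chromosome 11 (62625178 to 62625406, hg19), from 2020 to 1792 bases before that start. It was 229 bp wide and scored 50.8, which is within 1 unit of the lowest score in the list and ranked 729 of the 751 peaks on that chromosome. No peak in the list covered the SNHG1 start. A site weaker than the list's lower limit of 50 would not be seen in it. Set beside the number of snoRNA genes inside each host, the highest scores were 898.3 at SNHG15 and 118.6 at SNHG8 with 1 snoRNA gene each, 211.7 at SNHG3 with 2, 164.9 at SNHG12 with 4, 50.8 at SNHG1 with 9 and 153.1 at GAS5 with 11. The genes were selected on these scores, so no relation is read from them.

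**Figure D2:**
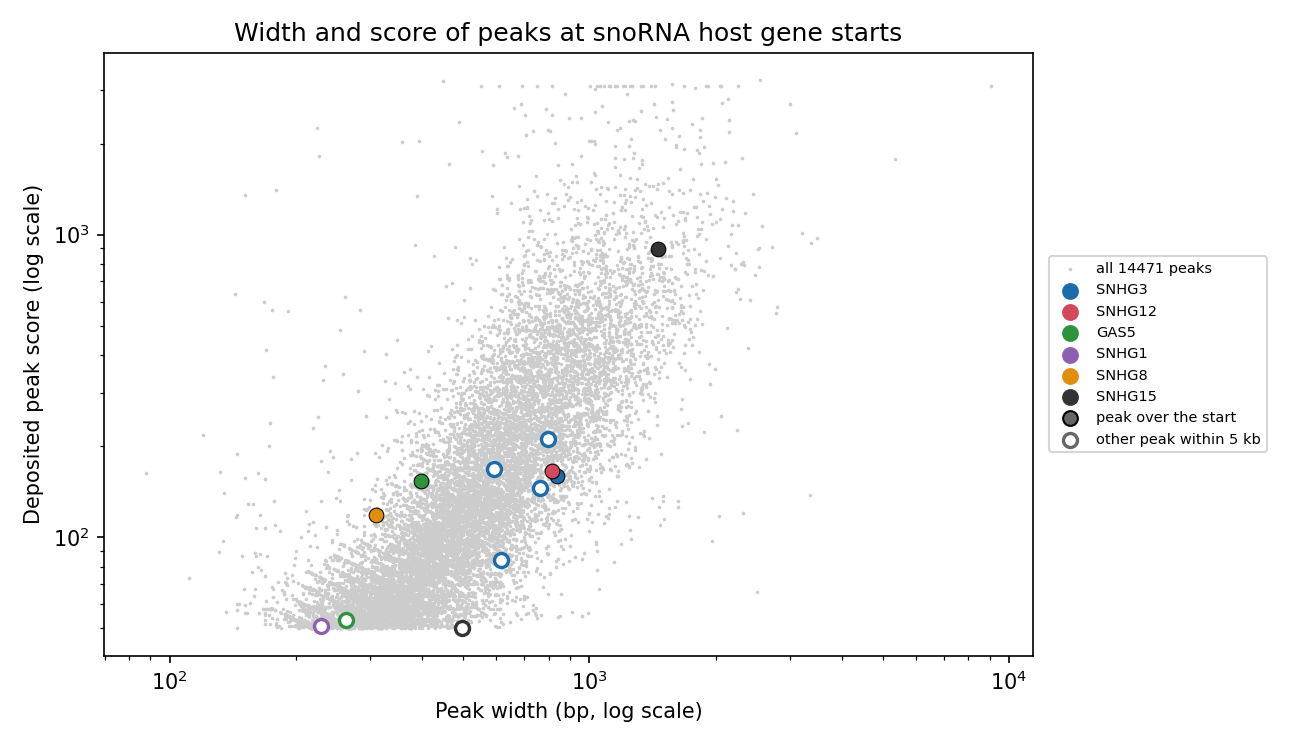
Width (x axis, bp) and deposited score (y axis) of every peak in the list, both on log scales, in grey, with the 12 peaks near snoRNA host gene starts coloured by gene. Filled points cover a start and open points lie elsewhere within 5 kb. SNHG15 stands at 1457 bp and 898.3, the filled points of SNHG8 and GAS5 score above 97.2% and 93.4% of peaks of like width, and 4 open points lie under 100.

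In these 12 peaks, more bases lay from the start on than before it. Of the 5 peaks over a start, 4 had more bases from the start on than before it, and SNHG12 was the exception. The bases from the start on numbered 786 at SNHG3, 342 at GAS5, 221 at SNHG8 and 1215 at SNHG15, against 50, 55, 90 and 242 bases before it in the same genes. Of the other 7 peaks, 5 lay wholly after the start, 4 of them at SNHG3, and 2 lay wholly before it. Over all 12 peaks this came to 5995 bases from the start on and 1580 before it. SNHG3 gave 3556 of the bases from the start on, and without it the totals were 2439 and 1530 bases. The SNHG15 start peak alone gave 1215 of those 2439. How peaks lie around the starts of other genes was not analysed here. The genes were selected on these positions, so no lean to either side is read from the totals.

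Peaks close to one another were found at SNHG3 only. A neighbour within 1 kb was present for 5 of the 12 peaks (41.7%), against 32.1% of all peaks, and all 5 belong to its run. The 5 kb on either side of the start held 2 or more peaks at SNHG3, GAS5 and SNHG15, which is 3 of the 6 genes. Counted around the midpoint of each peak, itself included, 9 of the 12 peaks had 2 or more, against 39.4% of all listed peaks, and 5 of the 9 belong to SNHG3. Width was above the list's median of 481 bp in 8 of 12 peaks, against 50% of all. Near the edge of the window, the GAS5 peak that scored 53.4 ended 4919 bases from the start and the last SNHG3 peak crossed 5 kb. Just outside it, a peak of 986 bp with a score of 114.5 began 5096 bases after the SNHG15 start.

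The number of peaks between 5 and 100 kb from the start differed from gene to gene. They held 9 peaks at SNHG1, 8 at SNHG12, 3 at SNHG15, 2 at SNHG3, 1 at GAS5 and 1 at SNHG8. Around the midpoints of all listed peaks the median was 2, with the middle part of the list (25th to 75th percentile) between 1 and 4. SNHG3 and SNHG12 start 75911 bp apart on chromosome 1, so the count at SNHG12 includes the 5 SNHG3 peaks, and that at SNHG3 includes the SNHG12 peak. Without peaks taken for another of the 6 genes, SNHG12 had 3 and SNHG3 had 1.

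The peak near the SNHG1 start scored above only 1.82% of the list, and all 9 surrounding peaks scored higher than it. The strongest of them, 869 bp wide with a score of 1242, began 13889 bases after the start and was also the nearest. At SNHG12 the start peak scored above 65.85% of the list, and 5 of the 8 surrounding peaks scored higher than it. Outside the SNHG3 window all 3 did, the strongest at 700.1 lying 66.6 kb before the start. At SNHG3, GAS5, SNHG8 and SNHG15 the start window held the highest score within 100 kb. The next peak outside the window lay 74128 bases away at SNHG8, 63213 at SNHG12 and 43251 at GAS5, with scores there of 50.2, 186.8 and 91.0. It was 13889 bases away at SNHG1, 12135 at SNHG3 and 5096 at SNHG15. Within 1 Mb but outside the 5 kb, GAS5 had 7 peaks and SNHG8 had 6, whereas the other 4 genes had between 27 and 34.

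**Figure D3:**
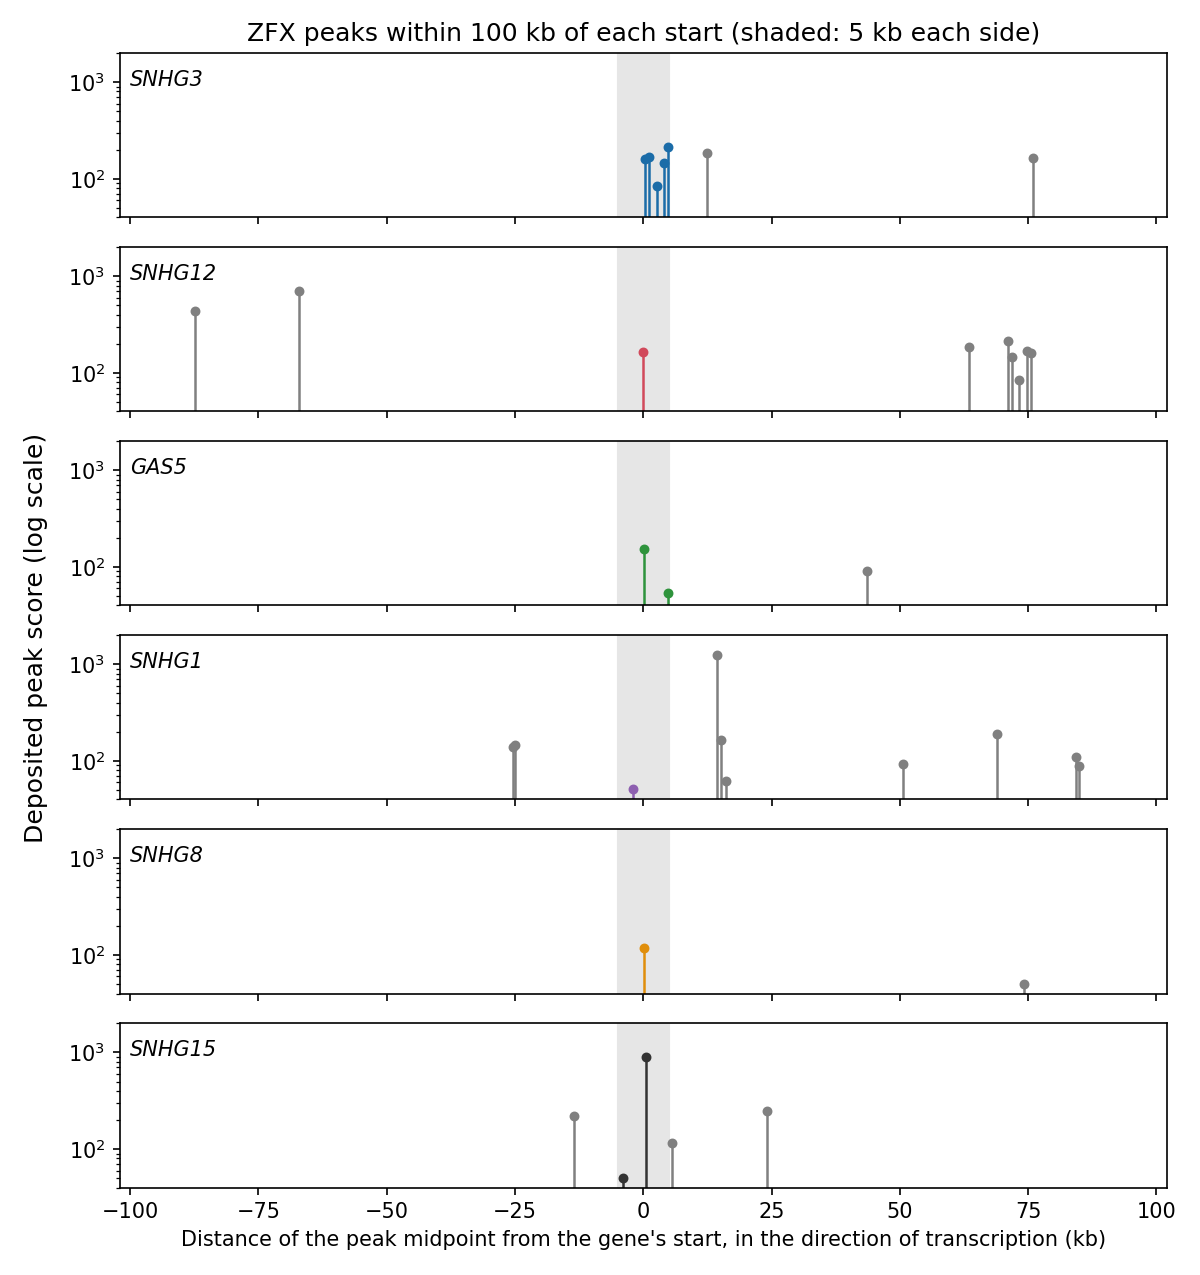
Peaks within 100 kb of each start, by distance of the peak's midpoint in the direction of transcription (x axis, kb) and deposited score (y axis, log scale), with 1 panel per gene. Coloured stems are the 12 peaks near a start, grey stems are other peaks of that panel, and shading marks 5 kb on either side. The stem of 1242 stands beside SNHG1 while its own stem is at 50.8, and the run of SNHG3 reappears in the SNHG12 panel.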

How the data were processed

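The 2 DAOY samples, ZFX precipitation and input, were grouped by the labelled antibody. Bowtie2 2.0.0 and hg19 appear in the submitters' processing notes with no role, and hg19 was taken as the build. The names of the peaks in the deposited list mention MACS; how they were called, and against which control, is not stated in the sources used here. Each peak carries a score the authors deposited with no stated unit, used here to describe and rank peaks within this list. Starts in the list were taken as counted from 0 and are printed counted from 1. Peaks overlapping the 5 kb around the hg19 starts of the 6 genes were taken, with distances counted from 0 at the start base and read along the gene's strand. The authors called peaks on 1 library, so no test was made. Peaks of like width differ by at most 10%. Nearest distances are to a peak's edge. All 6 genes are named, and members and lists were chosen with earlier results of these data known. Promoters, snoRNA genes and neighbours come from RefSeq on GRCh38.p14. The counting of windows, neighbours and motifs was tested on simulated data. Alternatives changed the window, overlap, base counting, score limit, joining, distance, ring and motif window. Software was matplotlib 3.10.9, pandas 2.3.3, numpy 2.4.6 and scipy 1.17.1 under Python 3.11.15.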

Additional observations from a re-analysis of the deposited data

How the results depend on the processing

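Of 18 alternatives for 6 results, 10 kept the value or a count within 1.5 times, and 8 moved. Taken gene by gene, 31 of 77 alternatives moved. The results are counts, shares and distances, with no direction of their own. Their standing against the list can change, as with the surrounding peaks, whose median equalled that of the list within 50 kb but not within 100 kb. The number of peaks was 6 with 1 kb on either side of the starts and 7 with 2 kb, against 12 in the 5 kb used, since smaller windows leave out the later SNHG3 peaks and the weak distant ones. It was 13 with 10 kb and 8 for peaks above the median score or joined within 1 kb. The median share of the list that scored below a gene's strongest peak was 64.6%. It was 65.9% with 1 kb, which leaves out SNHG1, 63.2% within the same chromosome and 58.5% by width. The median distance from start to peak was 0 bp to the edge and 255 bp to the midpoint. The median number of surrounding peaks was 2.5 within 100 kb, 1.0 within 50 kb and 28.0 within 1 Mb, where all listed peaks had medians of 2.0, 1.0 and 18.0, so wider rings hold more peaks by construction. No paired analysis was possible because each group has 1 library, and none could be left out. Depth is unknown, so weak sites missed by the list cannot be counted.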
